A study of Mus musculus with 57 samples.

Results

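Genes of dendritic cells, 9 in number, were followed across both count tables of a study of P2RY12, a receptor for extracellular nucleotides, in CD11b-positive cells isolated from mouse brain. The genes were picked by symbol: Cd209a, Flt3, Zbtb46, Xcr1, Clec9a, Batf3, Itgae, Ccr7 and Fscn1. All 9 were listed in both tables and passed the filter on low counts in both. One table, of 50565 genes, compares male and female animals (the sex experiment), and the other, of 53278 genes, compares animals with and without lipopolysaccharide (the LPS experiment). Among males the sex experiment had 4 WT and 5 KO animals and among females likewise 4 WT and 5 KO, with no LPS in their group labels. The LPS experiment comprised 8 WT ns, 9 WT LPS, 8 KO ns and 8 KO LPS libraries by their labels, where LPS, the endotoxin of Gram-negative bacteria, had been injected into the peritoneal cavity at 1 mg/kg. WT stands for wild type and KO for littermates deficient in P2RY12, all adult, and the RNA was selected by its poly(A) tail. How the deficiency was made, what ns stands for, the time after injection, the age beyond adult and the sex of the animals in the LPS experiment are not given in the sources used here. Nothing in the labels says whether samples came from separate animals in the LPS experiment, so its p-values measure the spread between these samples, which may be partly technical.

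Dendritic cells take up antigen, carry it to lymph nodes and present it to T cells. In brain they lie mainly in the meninges and choroid plexus, and since they carry CD11b to varying degrees, a CD11b isolation can keep some of them beside microglia. Conventional dendritic cells depend on the growth factor receptor Flt3 and express the transcription factor Zbtb46. The type 1 subset depends on Batf3 and carries the chemokine receptor Xcr1, the dead-cell receptor Clec9a and often the integrin subunit Itgae (CD103). The C-type lectin Cd209a marks type 2 and monocyte-related dendritic cells, and cells that mature and migrate raise the chemokine receptor Ccr7 and the actin-bundling protein Fscn1. In bulk samples, fewer cells of a type and less RNA per cell cannot be told apart. Reads of these genes may also come from microglia in the same sample, and their cell of origin was not tested. A change in such a gene is therefore not by itself a change in dendritic cells.

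The stretches of 250 bases before the start of 4 genes that were lower with LPS are shown because these genes shared a direction with LPS. They are from RefSeq (GRCm38.p6), which held a promoter window for 7 of the 9 genes, with none for Itgae and Ccr7. Capitals mark matches to any of 5 motifs searched on both strands.
Cd209a, chr8:3748985-3749234, minus strand: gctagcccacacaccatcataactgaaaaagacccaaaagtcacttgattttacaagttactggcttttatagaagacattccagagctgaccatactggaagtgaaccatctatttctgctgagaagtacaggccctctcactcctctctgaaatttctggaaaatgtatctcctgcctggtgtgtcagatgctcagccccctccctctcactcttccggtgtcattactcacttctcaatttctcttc
Clec9a, chr6:129408612-129408861, plus strand: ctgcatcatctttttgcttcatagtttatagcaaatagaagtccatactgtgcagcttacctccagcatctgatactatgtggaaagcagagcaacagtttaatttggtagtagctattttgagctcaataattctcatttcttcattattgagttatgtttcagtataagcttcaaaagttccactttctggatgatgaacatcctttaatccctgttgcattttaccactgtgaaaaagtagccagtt
Flt3, chr5:147400490-147400739, minus strand: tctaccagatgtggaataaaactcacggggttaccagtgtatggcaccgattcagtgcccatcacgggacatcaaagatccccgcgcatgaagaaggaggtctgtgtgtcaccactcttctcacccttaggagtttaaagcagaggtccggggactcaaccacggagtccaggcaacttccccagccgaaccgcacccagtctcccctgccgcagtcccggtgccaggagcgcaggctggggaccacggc
Batf3, chr1:191098164-191098413, plus strand: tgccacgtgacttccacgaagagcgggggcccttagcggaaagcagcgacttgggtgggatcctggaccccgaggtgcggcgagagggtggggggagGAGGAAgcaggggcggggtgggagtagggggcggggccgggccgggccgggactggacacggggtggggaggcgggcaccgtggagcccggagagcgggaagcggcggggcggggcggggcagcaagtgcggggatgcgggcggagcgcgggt
The motifs were the PU.1 box GAGGAA, found in 23.3% of 32851 promoter windows of this length, the AP-1 motif TGANTCA (6.75%), an interferon regulatory factor motif (GAAA, any 2 bases, GAAA; 2.98%), the composite of ETS and interferon regulatory factors (GGAA, any 2 bases, GAAA; 2.3%) and a kappaB motif (GGGA, any base, TT, any base, CC; 0.98%). The interferon and ETS motifs can overlap each other and the PU.1 box. Of these 4 windows, that of Batf3 held 1 match, a PU.1 box at -153 to -148 from the start, and the other 3 held none. Among the 3 windows not shown, that of Zbtb46 held 1 AP-1 match, TGACTCA, at -61 to -55 from the start. A match is a description of the letters, and its absence says nothing about a factor.

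Depth and the agreement of libraries with their labels bear on every result. Totals ran from 58.5 to 318.5 M counts (M standing for mega) in the sex experiment and from 15.9 to 168.4 M in the LPS experiment. Levels are given as CPM, meaning counts per M of TMM-scaled library size. P2ry12, the targeted gene, was at 3007 to 5928 CPM in WT and 309.3 to 526.4 in KO animals of the sex experiment, on the side of the genotype label in all 18 animals. In the LPS experiment the 4 WT libraries of library number 2 went against their treatment label in P2ry12 and in Saa3, an acute-phase gene raised by LPS, and they are shown apart and were left out of the fit. WT LPS 8 and 9 were closer to each other than any other replicate pair, near the sampling noise, and were counted as 1 sample, which left 6 WT ns, 6 WT LPS, 8 KO ns and 8 KO LPS samples. The labelled cell type was checked with 9 microglial markers. All 9 were detected in every library of the LPS experiment, with a summed level of at least 16340 CPM, and the 8 that were matched in the sex table were detected in all 18 animals, with at least 21340 CPM. Libraries KO ns 5, KO ns 6, KO LPS 5 and WT LPS 7 resembled their own group least, with a median correlation across genes of 0.8626 to 0.9385 against at least 0.9754 for the other 24 samples. The counts of the 9 genes called are also given without these 4. That choice was made after the data were seen, and leaving out the least alike libraries narrows the spread within groups.

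The 9 genes were expressed at very different levels. Per kb of exon in WT ns, Fscn1 stood highest, at 218 ± 76.0 CPM per kb (SD, n = 6). Batf3 followed at 28.4 ± 6.66 and Cd209a at 11.9 ± 3.38. Itgae had 3.00 ± 0.643 CPM per kb, Flt3 1.74 ± 0.657 and Zbtb46 0.979 ± 0.0874. Clec9a, at 0.449 ± 0.175, and Xcr1, at 0.285 ± 0.0750, came next, and Ccr7 was lowest at 0.0831 ± 0.0485. Ranges of neighbours in this order did not overlap between Fscn1 and Batf3, between Batf3 and Cd209a, between Cd209a and Itgae, and between Xcr1 and Ccr7. They overlapped for Itgae and Flt3, for Flt3 and Zbtb46, and for Clec9a and Xcr1. Zbtb46 (0.873 to 1.07) lay above Clec9a (0.175 to 0.656). Exon lengths are from GENCODE M21, since the annotation counted for this table is not given in the sources used here.

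In cells of KO mice, 6 of the 9 genes changed with LPS, 5 lower and 1 higher (edgeR's quasi-likelihood test with Benjamini-Hochberg adjustment over all genes, called at an adjusted p under 0.05), where 28.9% of all 16088 genes tested were called (15.6% lower and 13.4% higher). In cells of WT mice the same 5 fell and the same 1 rose, against a background of 30.9% (15.9% lower and 15% higher). Cd209a fell furthest, by 178-fold in KO, and Clec9a, Flt3, Itgae and Batf3 fell less, while Ccr7 rose. Cd209a and Clec9a, at few counts in most LPS samples, passed the filter on low counts through the ns samples. Ccr7, at few counts in most ns samples, passed it mainly through the LPS samples. For these genes the filter favours the direction called. The median log2 fold change of the 9 genes was -0.97 in KO and -1.14 in WT, beside -0.02 and -0.01 over all genes tested. Without the 4 libraries least like their group, 8 of 9 genes were called in KO (54.7% of all genes) and 7 of 9 in WT (54.1%). With every library in the group of its label, 6 of 9 were called in KO (22.3% of all genes) and 0 of 9 in WT, where edgeR called 0 of 15857 genes and 3605 had an unadjusted p under 0.05.

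**Figure D1:**
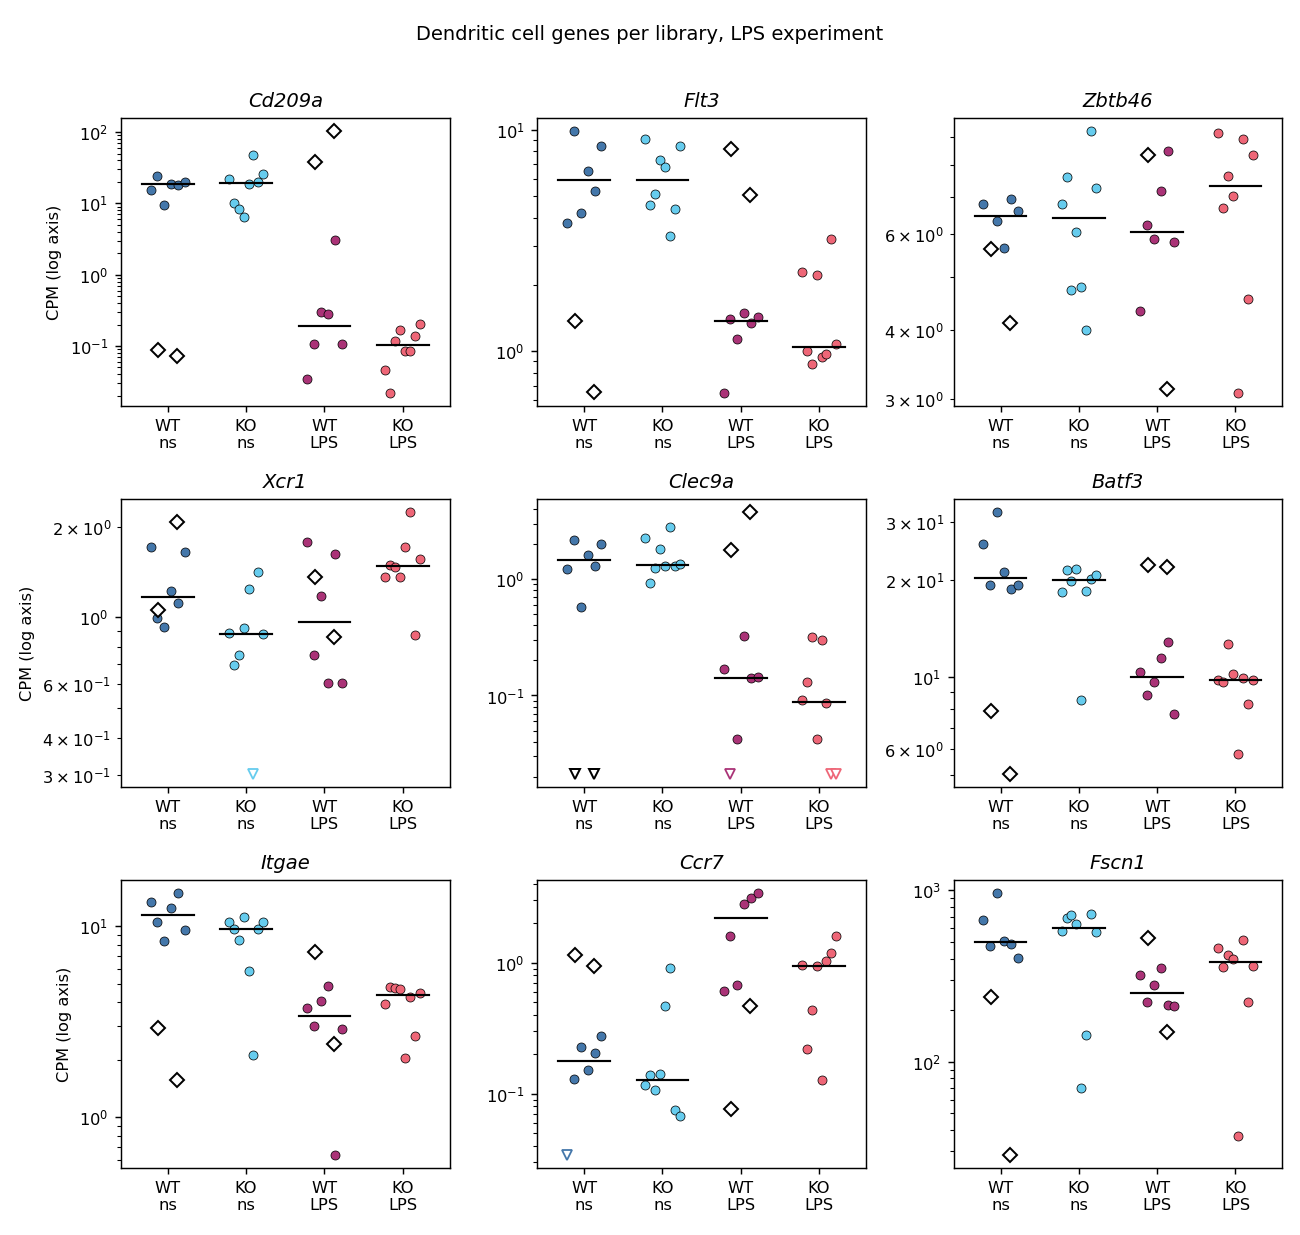
Levels of the 9 genes in the LPS experiment, in CPM on a log axis, 1 point per sample, with the group median as a line; open diamonds are the 4 WT libraries of library number 2 shown apart, and open triangles at the lower edge are libraries with 0 counts. Cd209a runs from 6.43 to 48.0 CPM in KO ns and from 0.0219 to 0.201 in KO LPS, and the diamonds labelled WT LPS sit at 38.1 and 103.

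Flt3, the receptor on which conventional dendritic cells depend for growth, had in KO ns a lowest, median and highest level of 3.32, 5.95 and 9.10 CPM, and in KO LPS 0.876, 1.04 and 3.22. Every KO LPS sample was below every KO ns sample. The log2 fold change was -1.98 ± 0.30 (SE, adjusted p 1.33e-05, edgeR). In WT ns it had 3.78, 5.91 and 9.85 CPM, and in WT LPS 0.648, 1.36 and 1.49. The WT groups did not overlap either, and the log2 fold change was -2.36 ± 0.36 (adjusted p 1.26e-05). Zbtb46, the transcription factor of conventional dendritic cells, did not pass the test. It was at 3.99, 6.42 and 9.23 CPM in KO ns and 3.07, 7.34 and 9.14 in KO LPS, and the ranges overlapped almost wholly. Its log2 fold change was 0.13 (95% confidence interval -0.28 to 0.55, adjusted p 0.689) in KO and -0.01 (-0.49 to 0.47, adjusted p 0.986) in WT.

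Among the genes of type 1 cells, Clec9a, which recognises actin of dead cells, fell furthest. Its lowest, median and highest levels were 0.928, 1.33 and 2.79 CPM in KO ns and 0, 0.0884 and 0.319 in KO LPS. The samples KO LPS 7 and KO LPS 8 had 0 counts, which allows up to 0.143 and 0.122 CPM, and the others had 1 to 8 counts. The log2 fold change was -3.68 ± 0.49 (adjusted p 2.10e-06, edgeR). In WT it went from 0.576, 1.46 and 2.16 CPM to 0, 0.142 and 0.326, again without overlap (log2 fold change -3.37 ± 0.57, adjusted p 5.59e-05). Batf3, the transcription factor that type 1 cells need, had 8.52, 20.0 and 21.6 CPM in KO ns and 5.80, 9.80 and 12.6 in KO LPS. The KO ranges overlapped only through KO ns 5, at 8.52 CPM, since the next lowest KO ns sample was at 18.3. Batf3 fell by 0.97 ± 0.17 on the log2 scale in KO (adjusted p 6.13e-05) and by 1.14 ± 0.19 in WT (adjusted p 5.54e-05), where WT ns (18.8 to 32.2 CPM) lay wholly above WT LPS (7.73 to 12.9).

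Itgae, the CD103 integrin subunit that binds E-cadherin, had 2.11, 9.71 and 11.3 CPM in KO ns and 2.05, 4.39 and 4.79 in KO LPS. Only KO ns 6, at 2.11 CPM, reached into the KO LPS range. It fell by 1.11 ± 0.29 on the log2 scale in KO (adjusted p 0.00462, edgeR) and by 1.87 ± 0.34 in WT (adjusted p 1.51e-04), with WT ns at 8.39 to 14.9 CPM and WT LPS at 0.633 to 4.89. Xcr1, the receptor for the chemokine Xcl1, differed from the other type 1 genes in not being called lower in either genotype. It was at 0, 0.884 and 1.415 CPM in KO ns and 0.875, 1.48 and 2.23 in KO LPS, where KO ns 6 had 0 counts, which allows up to 0.167 CPM. Its log2 fold change was 0.80 ± 0.34 in KO (adjusted p 0.0846) and -0.22 ± 0.40 in WT (adjusted p 0.711). Without the 4 libraries least like their group edgeR called it in KO, at 0.69 ± 0.26 (adjusted p 0.0269). This was 1 of 3 among 12 other settings that called it higher in KO. The others were DESeq2 (0.80 ± 0.29, adjusted p 0.0202) and edgeR within the first set of library names (0.84 ± 0.27, adjusted p 0.0221). The difference between the genotypes in this response was not called (log2 interaction 1.02 ± 0.53, adjusted p 0.740).

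Cd209a, a lectin receptor related to human DC-SIGN, had 6.43, 19.6 and 48.0 CPM in KO ns, from 218 to 773 counts. In KO LPS it had 0.0219, 0.103 and 0.201 CPM, from 1 to 5 counts. All 8 KO LPS samples lay far below all 8 KO ns samples, and the log2 fold change was -7.48 ± 0.65 (adjusted p 1.67e-09, edgeR). In WT ns it had 9.39, 18.5 and 24.4 CPM. In WT LPS it had 0.0341, 0.193 and 3.10 CPM, the highest being WT LPS 7 with 44 counts and the others having 1 to 7. The WT log2 fold change was -5.26 ± 0.65 (adjusted p 7.03e-07), and -6.78 ± 0.54 without WT LPS 7 (adjusted p 1.31e-09). Cd209a was called in both genotypes within each set of library names. Its log2 fold changes were -7.10 in KO and -6.79 in WT within the first set, and -7.76 and -4.07 within the second.

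The 4 WT libraries shown apart went against their labels in Cd209a as well. Libraries WT ns 1 and WT ns 5 had 0.0885 and 0.0729 CPM, 2 counts each, while WT LPS 1 and WT LPS 6 had 38.1 and 103 CPM. With these libraries in the groups of their labels, the log2 fold change of Cd209a in WT was 0.25 ± 1.02 (adjusted p 0.901). Clec9a followed the same order, with 0 counts in WT ns 1 and WT ns 5 and 1.78 and 3.75 CPM in WT LPS 1 and WT LPS 6.

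Ccr7, which guides maturing cells toward lymph nodes, had 0.0677, 0.128 and 0.904 CPM in KO ns, and 0.128, 0.946 and 1.60 in KO LPS. The ranges overlapped through KO ns 5 and KO ns 6, at 0.470 and 0.904 CPM, and through the low KO LPS samples. It rose by 1.87 ± 0.51 on the log2 scale in KO (adjusted p 0.00627, edgeR). In WT it rose by 3.28 ± 0.58 (adjusted p 9.65e-05), from at most 0.275 CPM in WT ns to 0.614, 2.20 and 3.38 CPM in WT LPS, with no overlap. Counts behind these values were low, at most 37 in any ns sample and 3 to 189 with LPS. Fscn1, an actin-bundling protein, had 70.0, 606 and 728 CPM in KO ns and 36.7, 381 and 510 in KO LPS, with KO ns 5, KO ns 6 and KO LPS 5 far below the rest of their groups. It was not called in KO (log2 fold change -0.55 ± 0.38, adjusted p 0.302) or in WT (-1.09 ± 0.44, adjusted p 0.0607). Without the 4 libraries least like their group, KO ns 5, KO ns 6 and KO LPS 5 among them, edgeR called it lower in both. The values were then -0.72 ± 0.18 (adjusted p 0.00163) and -1.07 ± 0.20 (adjusted p 9.36e-05). Of 12 other settings, this one included, 7 called it lower in WT, such as DESeq2 (-1.06 ± 0.42, adjusted p 0.0350), and 2 in KO. With each of 28 samples left out in turn, it was called in 4 fits in WT and 0 in KO.

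Groups did not overlap for 3 of the 9 genes in KO (Cd209a, Flt3 and Clec9a), against 7.64% of all genes. In WT they did not overlap for 7, all but Zbtb46 and Xcr1, against 24.8% of all genes. Within the first set of library names 8 genes were called in KO (45.3% of all genes) and 7 in WT (42.6%). Within the second set 3 were called in each, Cd209a, Clec9a and Flt3 in KO (4.36% of all genes) and Cd209a, Flt3 and Ccr7 in WT (3.31%).

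**Figure D2:**
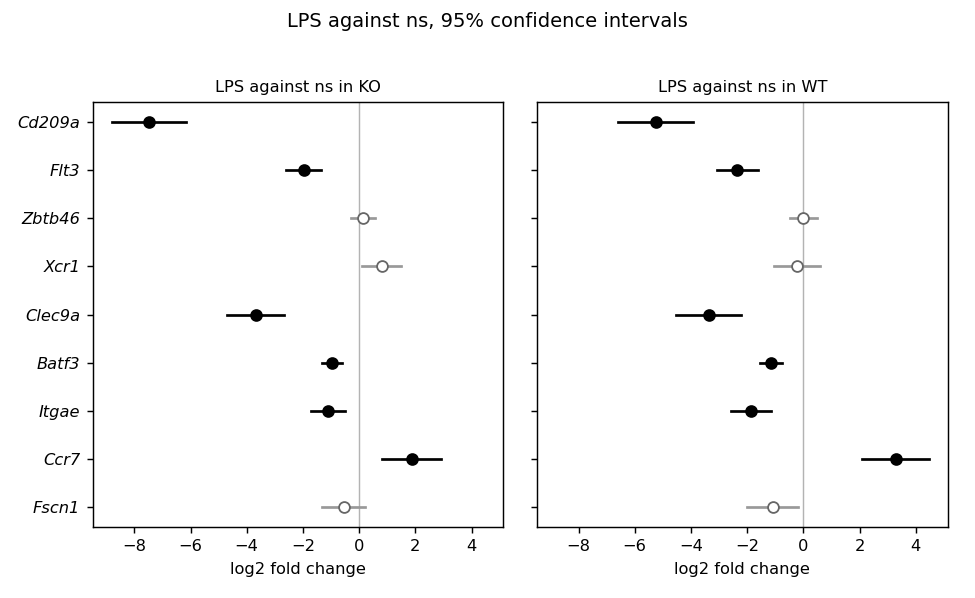
Log2 fold change with LPS for each of the 9 genes in KO (left) and WT (right), with 95% confidence intervals; filled points passed an adjusted p under 0.05. Cd209a stands at -7.48 in KO and -5.26 in WT, Ccr7 at 1.87 and 3.28, and the intervals of Zbtb46 span 0 in both.

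Other genes of dendritic cells gave the setting for these changes. Over all genes tested, 15.6% were called lower and 13.4% higher in KO, and 15.9% lower and 15% higher in WT. Of 9 other genes of conventional dendritic cells, 4 were lower and 0 higher in KO (median log2 fold change -1.15), and 6 were lower and 0 higher in WT (median -1.57). Btla, an inhibitory receptor, fell by 2.47 ± 0.46 on the log2 scale in KO (adjusted p 1.62e-04), and Bcl11a, a transcription factor, by 2.97 ± 0.42 in WT (adjusted p 4.88e-06). Of 12 tested genes of type 2 cells, 8 were lower and 2 higher in each genotype (medians -1.27 and -1.38). Mgl2, the lectin CD301b, fell by 4.67 ± 0.38 in KO and by 4.49 ± 0.44 in WT (adjusted p 5.98e-10 and 1.72e-08), from 28.7 ± 15.0 to 1.03 ± 0.436 CPM in KO (SD, n = 8 each). Of 12 tested genes of type 1 cells, 5 were higher and 1 lower in KO (median 0.11), and 4 were higher and 2 lower in WT (median -0.03). The adhesion molecule Cadm1 fell by 1.84 ± 0.15 in KO, and the lipid hydrolase Naaa rose by 1.91 ± 0.23 (adjusted p 3.44e-10 and 2.66e-07).

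Genes of maturing or migrating dendritic cells were more often called higher than lower. The shares over all genes were 13.4% higher and 15.6% lower in KO, and 15% higher and 15.9% lower in WT. Of 15 tested, 8 were higher and 1, the cytokine Il15, lower in KO (median 1.18), and 10 were higher and 1 lower in WT (median 1.18). The chemokine Ccl22, a ligand of Ccr4, rose from 0.532 ± 0.177 to 3.95 ± 1.32 CPM in KO (SD, n = 8 each), a log2 fold change of 2.87 ± 0.30 (SE, adjusted p 5.02e-08). Il15ra rose by 2.55 ± 0.25 in KO and by 3.06 ± 0.30 in WT (adjusted p 1.41e-08 and 1.52e-08). Several of these, such as Cd40, Icam1 and Relb, are not confined to dendritic cells and are also known from activated macrophages and microglia. Of 12 tested genes of plasmacytoid dendritic cells, 5 were lower and 3 higher in each genotype (medians -0.35 and -0.88). Siglech, which microglia express too, fell by 2.30 ± 0.21 in WT, while the interferon regulator Irf7 rose by 2.66 ± 0.28 in KO (adjusted p 5.96e-09 and 4.54e-08).

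Most tested relatives of Cd209a were also called lower, where 15.6% of all genes were called lower in KO and 15.9% in WT. Those near 0 counts with LPS, such as Cd209c and Cd209d, passed the filter on low counts through the ns samples. This favours calls of lower. Of 9 listed genes of the Cd209 family 6 were tested, Cd209a among them, of which 4 fell and 0 rose in KO, and 5 fell and 0 rose in WT (median log2 fold changes -4.48 and -5.27). Cd209b was at 5.42 ± 3.23 CPM in KO ns and 0.246 ± 0.276 in KO LPS (SD, n = 8 each). Cd209c was at 1.30 ± 0.825 CPM in KO ns, and the 8 KO LPS samples held at most 1 count each. Cd209d had 0 counts in all 6 WT LPS samples against 0.391 ± 0.293 CPM in WT ns, at least 21.3-fold lower with 3 counts over the group as the floor. With that bound in place of its fitted value the WT median of the family was -4.83. Cd209g was called lower in WT (-2.10 ± 0.74, adjusted p 0.0319) and not in KO (-1.12 ± 0.62, adjusted p 0.187). Cd209f was not called in either genotype, at 9.40 ± 6.07 CPM in KO ns and 5.96 ± 6.82 in KO LPS. Near-identical stretches between Cd209 genes could let reads be split among them, so the individual values are uncertain.

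**Figure D3:**
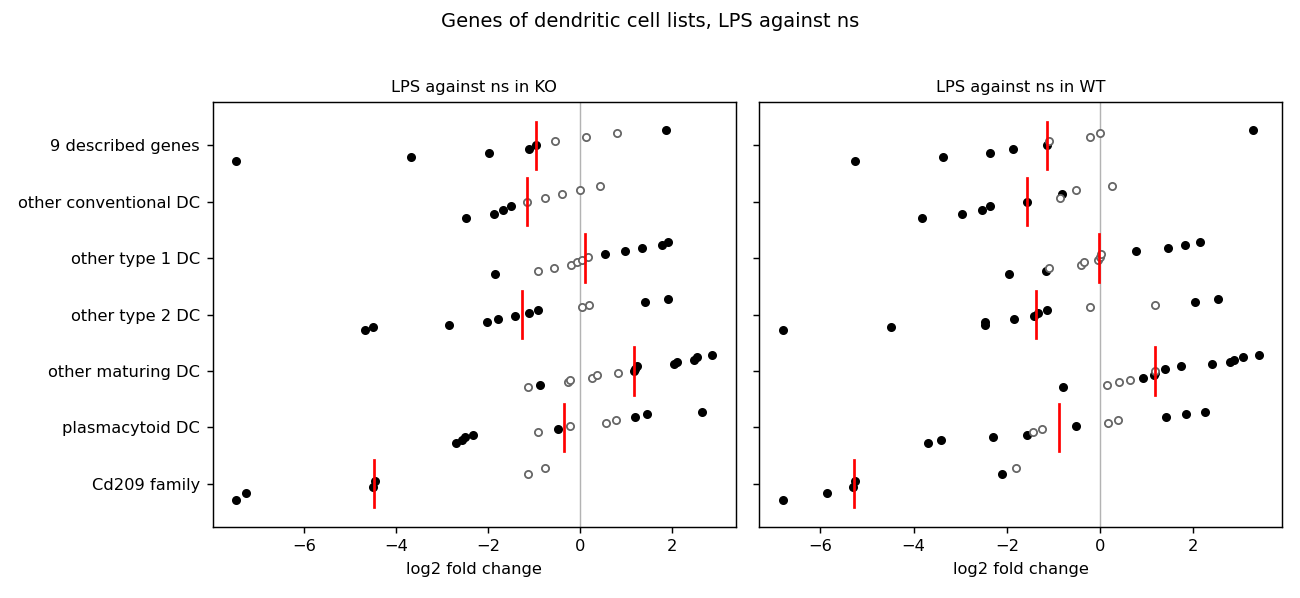
Log2 fold change with LPS of the 9 genes and of 6 further lists of dendritic cell genes, in KO (left) and WT (right), 1 point per gene tested. Filled points passed an adjusted p under 0.05 and the red line is the median. The Cd209 family, Cd209a included, has medians of -4.48 and -5.27, and the maturing genes 1.18 and 1.18.

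Ligands and partners of the 9 genes were measured in the same libraries. Of 13 tested, 4 were higher and 3 lower in KO, and 1 was higher and 2 lower in WT. Over all genes 28.9% were called in KO and 30.9% in WT, so the WT count was below that share. Xcl1, the ligand of Xcr1, fell by 2.04 ± 0.59 on the log2 scale in KO (adjusted p 0.0104), and Batf, a relative of Batf3, rose by 1.36 ± 0.22 in WT (adjusted p 3.41e-05). The Flt3 ligand Flt3l had log2 fold changes of -0.12 in KO and -0.83 in WT and was not called.

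Markers of other cells were examined with LPS too, and their part in the results was not tested. Over all genes tested, 28.9% were called in KO and 30.9% in WT. Counts for monocytes, neutrophils, oligodendrocytes and neurons did not exceed these shares, nor did those for NK cells and astrocytes in WT. Genes low with LPS, as among the T cell markers, can pass the filter through the ns samples alone, which favours calls of lower. Of 8 T cell markers 3 were abundant enough to be tested, and all 3 fell in KO and 2 in WT, the summed level of the list being 7.74 to 15.2 CPM in KO ns and 0.819 to 4.94 in KO LPS, with up to 5 of the 8 at 0 counts in a KO LPS library. Of 5 NK cell markers 3 fell in KO and 0 in WT (summed 22.8 to 211 CPM in KO ns, 3.23 to 72.8 in KO LPS). Of 4 tested B cell markers 2 fell in KO and 3 in WT (summed 16.0 to 50.2 CPM in KO ns, 15.2 to 38.8 in KO LPS). Of 9 microglial markers 6 fell in each genotype (summed 32020 to 49450 CPM in KO ns, 20790 to 26750 in KO LPS). Of 9 monocyte markers 1 rose and 1 fell in each genotype, the latter being Ccr2 (-1.75 ± 0.38 in KO, adjusted p 8.54e-04), and their summed level was 77.0 to 1263 CPM in KO ns and 225 to 661 in KO LPS. Of 10 markers of border macrophages 1 rose and 3 fell in each genotype (summed 688 to 2866 CPM in KO ns, 641 to 3704 in KO LPS). Of 8 neutrophil markers 0 were called in KO and 1 fell in WT (summed 287 to 10080 CPM in KO ns, 992 to 4332 in KO LPS). Of 4 tested endothelial markers 2 fell in KO, Pecam1 and Kdr, and 3 in WT, with Flt1 added. Their summed level was 67.5 to 109 CPM in KO ns and 25.3 to 67.54 in KO LPS, and 55.55 to 68.0 in WT ns and 15.8 to 39.6 in WT LPS. Of 5 astrocyte markers 2 rose in KO and 1 in WT, Gfap in both, at summed levels of at most 9.22 CPM in the groups compared. Of 4 tested oligodendrocyte markers 1 fell in each genotype, and of 5 neuronal markers 0 were called by edgeR in either.

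Whether loss of P2RY12 alters these genes was asked with and without LPS. At ns, edgeR called 0 of 9 genes between KO and WT, against 0.0932% of all genes. An unadjusted p under 0.05 was reached in edgeR by 0 of 9, against 1505 of 16088 genes. DESeq2 called 0 of 9, and 50 genes over all. The ranges of KO and WT overlapped for all 9 (0.839% of all genes had separate ranges). The log2 fold changes ran from -0.54 for Xcr1 to 0.25 for Ccr7. For Cd209a the difference was -0.02 ± 0.45, with a 95% confidence interval of -0.95 to 0.91 and levels of 20.0 ± 13.4 CPM in KO (SD, n = 8) and 17.7 ± 5.00 in WT (n = 6). For Flt3 it was -0.04 ± 0.31 (95% confidence interval -0.68 to 0.60).

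At LPS, edgeR called 0 of 9 genes between KO and WT (0.0684% of all genes). DESeq2 called 0 of 9, and 57 genes over all. In edgeR 2 of 9 had an unadjusted p under 0.05, against 1026 of 16088 genes. All ranges overlapped (0.261% of all genes did not). Cd209a had the largest difference, -2.24 ± 0.70 (adjusted p 0.452), and Ccr7 the next, -1.17 ± 0.48 (adjusted p 0.662). The value of Cd209a rested on WT LPS 7: without that library it was -0.61 ± 0.59 (adjusted p 0.956). With all libraries in the groups of their labels it was -7.29 ± 1.44 and called (adjusted p 0.0324), with WT LPS 1 and WT LPS 6 then counted as WT LPS. Of Ccr7, KO LPS samples had 0.128 to 1.60 CPM and WT LPS samples 0.614 to 3.38. Without the 4 libraries least like their group 0 of 9 genes were called at ns (0.348% of all genes), at LPS (0.28%) or in the interaction (0.00622%). In the genotype-by-LPS interaction with all 28 samples 0 of 9 genes were called, as were 0% of all genes. DESeq2 called 3 genes there, none of the 9, and 795 genes had an unadjusted p under 0.05 in edgeR, 1 of the 9 among them, Cd209a (-2.22 ± 0.86, adjusted p 0.740, and -0.68 without WT LPS 7).

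**Figure D4:**
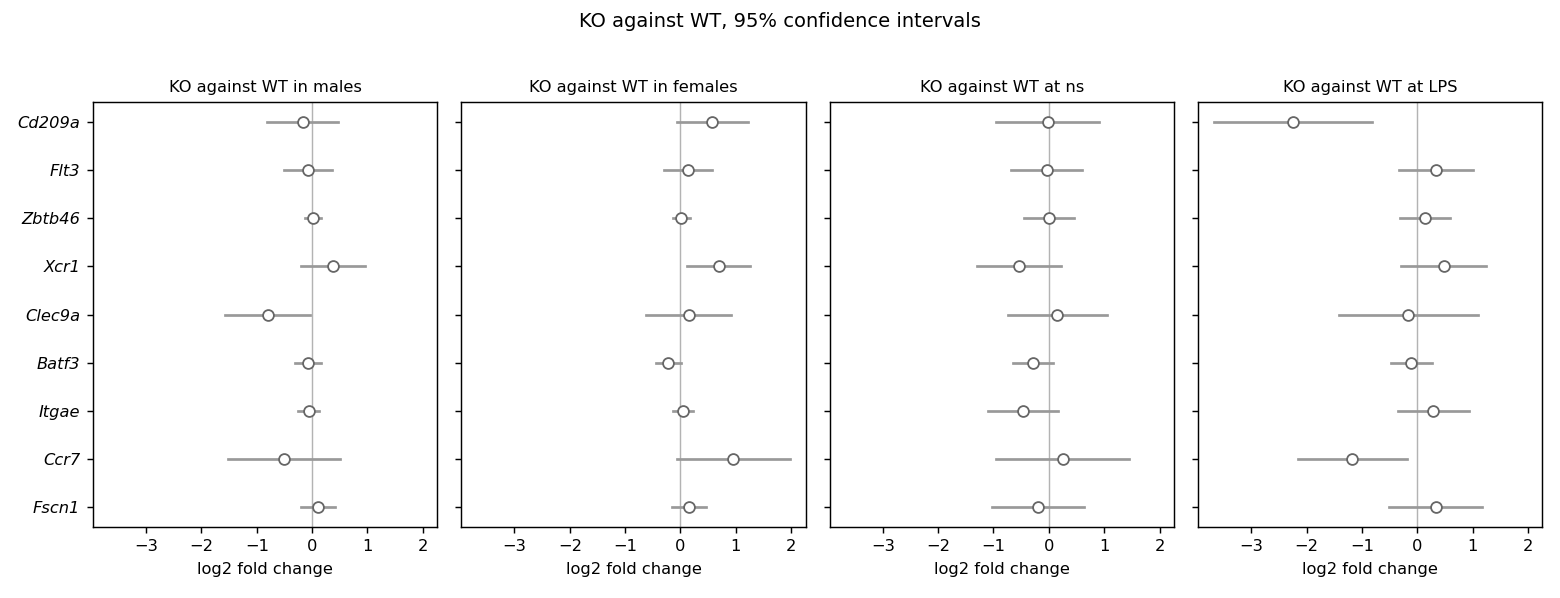
Log2 fold change between KO and WT for the 9 genes in 4 comparisons, with 95% confidence intervals; open points did not pass an adjusted p under 0.05, which holds for all of them. Cd209a at LPS stands farthest from 0, at -2.24.

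The sex experiment had higher totals by the median (92.04 against 24.68 M counts) and no treatment in its group labels. Its table gives whole gene spans as features, and the share of even numbers among its low counts differed. Totals of the tables may therefore not measure depth alike. Cd209a was at 9.79 ± 2.46 CPM in male WT (SD, n = 4; 6.40, 11.7, 9.55 and 11.5) and 8.69 ± 2.15 in male KO (n = 5; 10.5, 9.78, 10.3, 7.28 and 5.60). In female WT it was at 9.59 ± 2.59 (n = 4; 8.51, 10.4, 12.7 and 6.70) and in female KO at 14.3 ± 6.42 (n = 5; 10.5, 7.80, 11.2, 23.1 and 19.0). The groups overlapped, and the 2 highest animals of all 18, at 23.1 and 19.0 CPM, were female KO. The log2 fold change between KO and WT was -0.17 ± 0.30 in males and 0.58 ± 0.30 in females (adjusted p 0.989 and 1, edgeR).

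Flt3 differed little between groups, at 8.79 ± 2.55 and 8.39 ± 2.15 CPM in WT and KO males and 8.04 ± 1.73 and 8.86 ± 1.86 in WT and KO females. Xcr1 was low, at 0.719 ± 0.167 CPM in male WT and 0.924 ± 0.260 in male KO. In female WT its animals were at 0.683, 0.894, 0.743 and 1.01 CPM, and in female KO at 0.895, 1.53, 1.63, 1.73 and 0.914. Of the female KO animals, 3 lay above all female WT animals and the other 2 were inside the WT range. Averaged over the sexes its log2 fold change was 0.53 ± 0.19 (adjusted p 0.443). Clec9a was at 1.66 ± 0.825 and 0.953 ± 0.393 CPM in male WT and KO and 1.26 ± 0.484 and 1.40 ± 0.586 in female WT and KO, with male WT 5 highest of all at 2.87. Its log2 fold change in males was -0.80 ± 0.37 (unadjusted p 0.0405 and adjusted p 0.719 in edgeR).

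Batf3 in female KO, at 16.4, 16.8, 16.5, 14.2 and 13.9 CPM, lay wholly below female WT, at 17.7, 17.5, 18.8 and 18.4. It was the only one of the 9 genes whose KO and WT ranges did not overlap, against 2.19% of all genes in females (0.489% lower); in males 0 of 9 were apart, against 1.97% of all genes. The difference did not pass the test (log2 fold change -0.22 ± 0.11, adjusted p 1, edgeR), and in males the ranges overlapped (15.3 to 22.5 CPM in WT and 16.4 to 22.5 in KO). Ccr7 had its highest value in female KO 4, at 1.80 CPM and 158 counts, and ranged from 0.0836 to 0.738 CPM in the other 17 animals. Fscn1 was at 364 ± 92.3 and 391 ± 36.0 CPM in male WT and KO and 363 ± 61.4 and 404 ± 44.3 in female WT and KO. Its lowest animals were male WT 5, at 230 CPM, and female WT 2, at 285. Those 2 animals also had the highest summed levels of 8 neutrophil markers, 48210 and 28620 CPM. Calls of the 9 genes without both animals are given below, and a link of these markers with Fscn1 was not tested.

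Of the 9 genes, edgeR called 0 for KO against WT in males (0.00946% of all genes), in females (0.164%) or averaged over the sexes (0.432%), 0 in the sex-by-genotype interaction (0% of all genes) and 0 between females and males (0.861%). An unadjusted p under 0.05 was reached by 1, 1, 1, 1 and 2 of them in that order in edgeR. Over all 31709 genes tested, 2171, 1655, 2860, 879 and 3926 reached it. DESeq2 called 0 of the 9 in each, and 24, 213, 359, 0 and 754 genes over all. Between females and males Ccr7 had a log2 fold change of 1.00 ± 0.35 (adjusted p 0.224) and Batf3 -0.22 ± 0.08 (adjusted p 0.232). Without male WT 5 the difference of Batf3 was called, at -0.28 ± 0.07 (adjusted p 0.0379). Without both animals of high neutrophil markers 0 of the 9 genes were called in any of these comparisons, where 0.0125% of all genes were called in males, 0.602% in females, 0.969% over the sexes, 0% in the interaction and 1.23% between females and males.

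**Figure D5:**
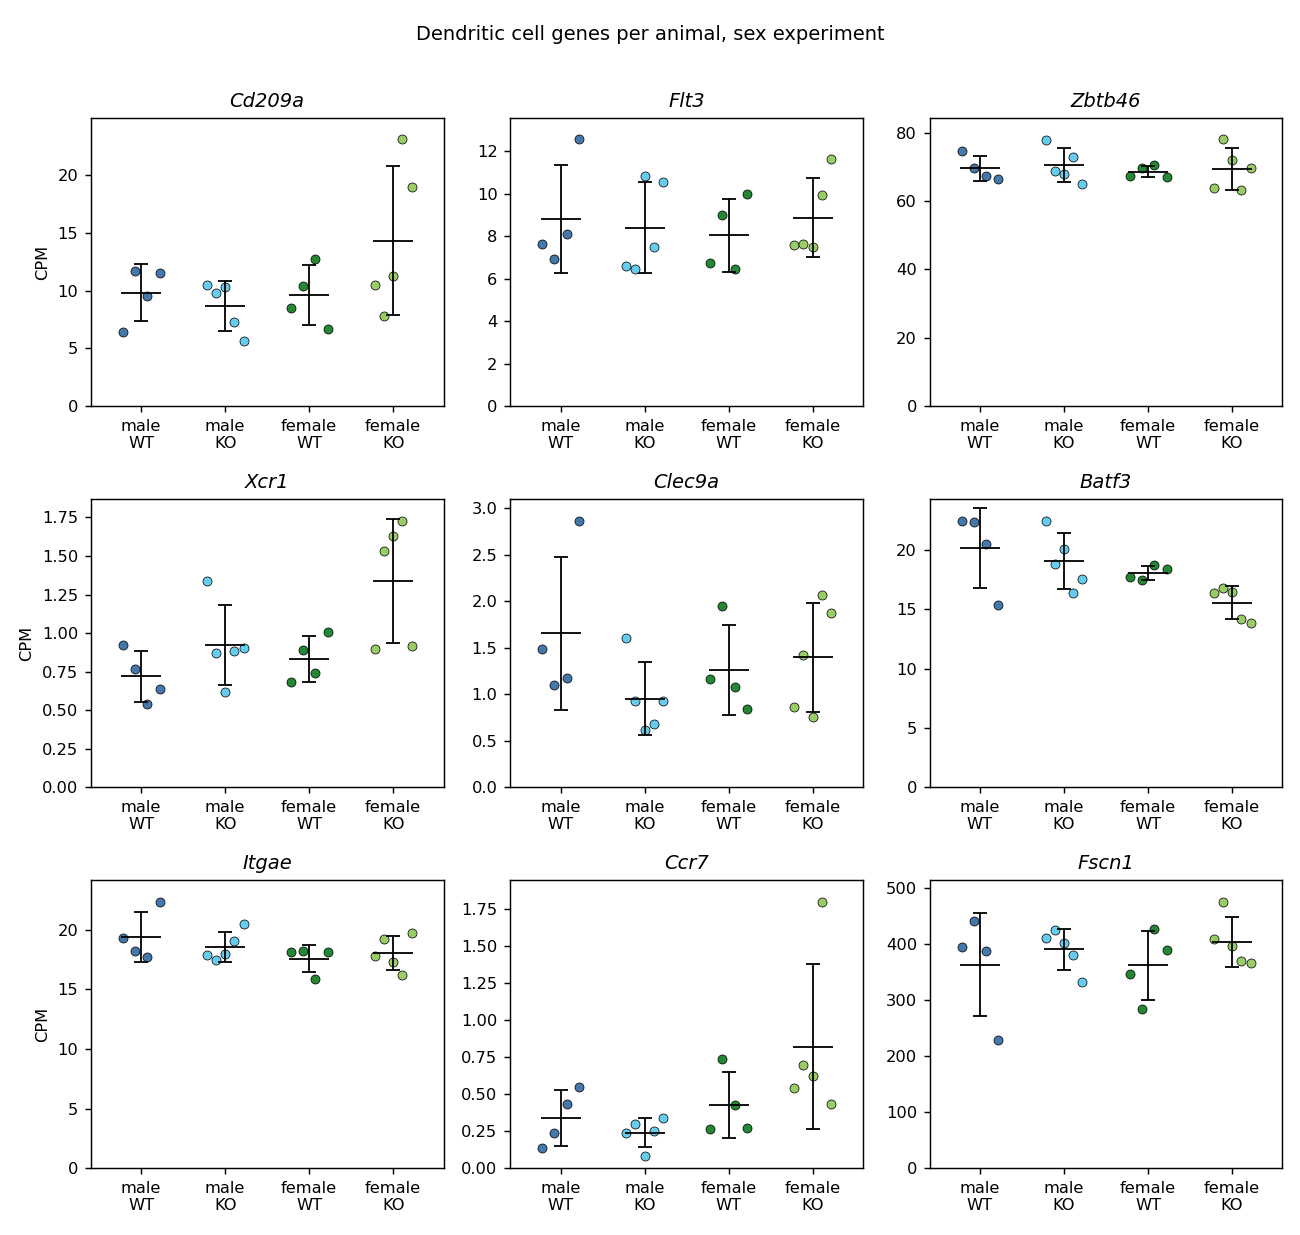
Levels of the 9 genes in the sex experiment in CPM, 1 point per animal, with the group mean and SD, and each axis starting at 0. Female KO animals of Batf3 (13.9 to 16.8 CPM) lie below female WT (17.5 to 18.8), and in the other panels KO and WT of the same sex overlap.

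Overlapping genes limit several values of the sex experiment. Zbtb46 (chromosome 2, 181012105 to 181134776, GRCm39) had 63.2 to 78.0 CPM per animal, but Zgpat, Lime1, Slc2a4rg-ps and Gm22708, which overlap it, together held counts equal to 88.6% to 94.8% of its count. Less these counts, Zbtb46 was at 5.82 ± 1.19 CPM (SD, n = 18). Only 66.1% of Zgpat lies inside Zbtb46 while its whole count, 40.6% to 48.5% of that of Zbtb46, was subtracted, so too much may have been taken off and neither the remainder nor a difference between groups in it is a measure of Zbtb46 alone. Itgae (chromosome 11, 72981335 to 73038425) contains Haspin, whose count equalled 34.9% to 57.95% of its own, and less that count it was at 10.3 ± 1.06 CPM (n = 18). In males, Zbtb46 less the overlapping genes averaged 6.84 ± 0.762 CPM with KO (n = 5) and 4.76 ± 0.548 with WT (n = 4), without overlap of the ranges (5.59 to 7.54 and 3.99 to 5.17). The exact permutation test, 2-sided, gave p = 0.0159, the smallest it can give for 5 against 4, and 0.0635 after adjustment over the 4 comparisons made. In females the means were 5.70 ± 0.871 and 5.73 ± 1.64 CPM (exact p = 1). In males, Itgae less Haspin averaged 10.8 ± 1.57 CPM with KO and 9.70 ± 0.348 with WT (exact permutation p = 0.190, adjusted 0.381). Clec9a (chromosome 6, 129385825 to 129401727) shares part of its span with Clec12b, on the other strand, whose count was 237% to 508% of its own. These differences of counts were chosen after the values were seen, and reads spanning several genes may be counted differently for each.

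The 9 genes did not vary as a block among samples of a group. After subtracting group means from log2(CPM + 0.5), and in the LPS experiment means of group and library set, Cd209a correlated across 28 samples of the LPS experiment with Clec9a at r = 0.37, with Flt3 at 0.12 and with Xcr1 at -0.02. In the 18 animals of the sex experiment the values were 0.44, 0.14 and -0.12. Batf3 and Fscn1 had r = 0.77 and 0.79 in the 2 experiments, and Flt3 and Fscn1 -0.02 and -0.69. The points share library depth and cell makeup, and these values are descriptions.

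The genes most like each of them by this measure were taken over all genes tested. For Cd209a in the LPS experiment the closest was H2-Aa, a chain of MHC class II, at r = 0.87 over 28 samples. Mtrf1l followed at 0.82, then Gm26836, Acyp1 and Golph3. For Flt3 in the LPS experiment they were Gm43823, Spib, Rab37, Sept6 and Dna2, Spib being a transcription factor of dendritic and B cells, at 0.76. None of the 5 closest genes of Cd209a, Flt3, Batf3 or Fscn1 in either experiment was among those of the other. Tmem119, a microglial marker, was among the 5 closest to Batf3 in the LPS experiment, at 0.91. Slc2a5 and P2ry6, both expressed by microglia, were among the 5 closest to Fscn1 in the sex experiment, at 0.97 and 0.98. Whether reads of Batf3 and Fscn1 came from dendritic cells or from microglia was not tested. Xcr1 had Suv39h2 first, at 0.88, and Itgae had Gm37893, at 0.94, both in the LPS experiment. In the sex experiment the closest gene to Zbtb46 was Ube2z at 0.94, and the overlapping genes Zgpat and Lime1 followed at 0.94 and 0.89.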

How the data were processed

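RNA was sequenced from CD11b-positive brain cells. The authors deposited raw read counts per gene, 1 table per experiment, not normalized. Per the submitters' processing notes, STAR 2.6.1, featureCounts of Subread, DESeq2 and GRCm39 were used, with no role given for each table. Per the file headers the sex table gives whole gene spans on GRCm39. The strand setting is not given in the sources used here. Of 57 libraries in the labels, 6 repeats have no column and were not analysed here.

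Groups came from the labels. Each table was fitted separately with edgeR 4.0.16 in R 4.3.3: filterByExpr (31709 and 16088 genes kept), TMM, robust quasi-likelihood F tests, a mean per group and, for the LPS table, the library set, with Benjamini-Hochberg adjustment over all genes and calls under 0.05. The 4 WT libraries of library number 2 were left out of the LPS fit, and 1 near-identical pair was summed (chi-square over its degrees of freedom 1.86; the next closest pair had 8.315). The even share of low counts, 78.4% to 87.7% in the sex table and 41% to 46.2% in the LPS table, differed, so no fit joined the tables. All 9 genes were named, with at most 3 called genes per list and comparison of largest change and the 5 genes of highest correlation; genes of lists cited beyond this rule were chosen after their values were seen. The genes, lists and tests were chosen with earlier results of these data known. Tests were tried on simulated data. Alternatives were DESeq2 1.42.0, RLE scaling, no filter, other sample sets, each sample left out and a replicate block. The fits without the 4 libraries least like their group or the 2 animals of highest neutrophil markers were added after the data were seen. For edgeR, SE and confidence intervals were derived from the fold change and F statistic of each test and reflect the spread between samples. They are approximate, above all for genes near 0 counts. Floors of 3 counts cover counting error only.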

Additional observations from a re-analysis of the deposited data

Results flagged for a closer look

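Of 72 groups of 4 to 8 samples examined (9 genes in 8 groups), 4 held a sample far from the others, and chance alone gives about 1 in 20. In WT LPS, Cd209a was at 3.10 CPM in WT LPS 7. In KO ns, Batf3 was at 8.52 CPM in KO ns 5. In the sex experiment, Ccr7 was at 1.80 CPM in female KO 4 and Itgae at 15.8 CPM in female WT 3.

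In the WT libraries of library number 2, which were left out of the fit and compared only by label, several genes were above the highest WT ns sample. Cd209a was at 38.1 CPM in WT LPS 1 and 103 in WT LPS 6. Clec9a was at 3.75 CPM in WT LPS 6, Zbtb46 at 8.34 in WT LPS 1 and Xcr1 at 2.08 in WT ns 5. Ccr7 was at 1.15 CPM in WT ns 1, 0.947 in WT ns 5 and 0.468 in WT LPS 6.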

How the results depend on the processing

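Of the 9 genes, with LPS, library set 2 alone called 3 in KO and 3 in WT (6 of 9 in each with all sets), and all libraries by their labels called 0 in WT, where Cd209a changed direction to 0.25. Between KO and WT at LPS that grouping called 1 of 9, Cd209a. Leaving out each sample in turn gave 6 to 7 in KO, 6 to 7 in WT, 0 to 1 between females and males, and 0 in the other comparisons. Library set 1, the 4 libraries left out, DESeq2 and other settings moved no such count by more than 1.5 times. Over all genes the counts were less stable: 721 to 8783 with LPS in KO, 0 to 8696 in WT, 1 to 56 between KO and WT at ns, 0 to 57 at LPS, 0 to 3 in the interaction, 2 to 24 in males, 3 to 213 in females, 84 to 359 over the sexes and 205 to 754 between the sexes. Leaving out 1 sample gave 5 to 132 in females, 54 to 279 over the sexes and 167 to 495 between the sexes. The cause of these differences was not tested. RLE scaling moved the median of all genes by at most 0.0275 on the log2 scale in size (-0.0275).

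The replicate block called 6 of 9 genes in KO (34.6% of all genes) and 7 of 9 in WT (35.8%), adding Fscn1 (-1.20 ± 0.29, adjusted p 0.00351 in edgeR), and 0 in every other comparison. Over all genes it called 33 at LPS, 5 in females and 84 over the sexes. The numbers were not taken as pairing samples, since the labels do not say that they do. In the sex experiment 6 of 8 same-numbered pairs correlated above 0.1 (mean 0.205, -0.167 to 0.376), against 10 of 32 other pairs (mean -0.0479). In the LPS experiment 21 of 35 did (mean 0.239, -0.286 to 0.871), against 66 of 111 others (mean 0.127). In the sex experiment 9 of 16 animals correlated best with their own number. The mean was higher for same-numbered pairs in both experiments, and these values do not settle whether numbers pair samples. Levels near 1 count, as for Ccr7 and Clec9a, limit the precision of their values.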
